A study of Mus musculus with 9 samples.

Results

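The genes described are 10 plexins, semaphorins and neuropilins: Plxna1, Plxna2, Plxna3, Plxnc1, Plxnd1, Sema4a, Sema4d, Sema7a, Nrp1 and Nrp2. They were chosen by gene symbol, and every probe set annotated to 1 of these symbols was taken. Of the 10 genes, 8 have a probe set, and Plxnc1 and Nrp2 have none. The 8 genes have 11 of the 12488 probe sets of the array design used for experiments 2 and 3, and 10 of the 12654 of the design used for experiment 1, with 9 in common. RNA came from mouse dendritic cells sampled at day 10 per the labels, which do not say what the cells were grown from or whether the arrays of a group came from separate animals. The 3 groups are B6, taken as the wild type; CIITA-/-, where the label names CIITA, the activator of MHC class II genes; and IAb-/-, where it names I-Ab, the class II molecule whose beta chain is encoded by H2-Ab1. No label gives an age, a strain background for either mutant, or a treatment, and no treatment is named for any group. Each group has 3 arrays, 1 in each of experiments 1, 2 and 3, so each has 2 on the larger table of 6 arrays and 1 on the table of 3 arrays. The title of 1 CIITA-/- array has no experiment number; it was taken as experiment 2, the number left in its group. The p-values therefore reflect array-to-array spread, and part of it may be technical.

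Semaphorins are secreted or membrane-bound signals, plexins are their receptors, and neuropilins are co-receptors that let plexins bind the secreted class 3 semaphorins. Plexins signal through an intracellular domain that acts on small GTPases and through them on the actin cytoskeleton and integrins. In the immune system, Sema4A on dendritic cells costimulates T cells, Sema4D (CD100) acts on B cells and dendritic cells, Sema7A binds an integrin on myeloid cells, and plexin-A1 on dendritic cells is known for a role in T cell stimulation. Plxna1 is also known as a gene that depends on CIITA in dendritic cells, and the groups here let its levels, and those of its relatives, be compared between arrays labelled for CIITA and for a class II molecule.

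CIITA does not bind DNA itself. It acts on class II promoters through factors bound to the X and Y boxes, and the Y box core CTGATTGG is bound by NF-Y. Promoter windows of RefSeq (GRCm38.p6), each 250 bases before a gene's start, were searched for these 8 letters on both strands, with no other motif searched. Of 32851 windows, 3.83% hold them. Of the 12 windows of 7 members in that table, 0 do; Plxna1 has no window there. The window of H2-Aa, a class II gene, is shown with the match in capitals (51 to 44 bases before the start), beside those of Sema7a and Plxna3, the members with an unadjusted p under 0.05 in a fit given further on; a missing match says only that these letters are not in the window.
H2-Aa (chr17:34287824-34288073, minus strand): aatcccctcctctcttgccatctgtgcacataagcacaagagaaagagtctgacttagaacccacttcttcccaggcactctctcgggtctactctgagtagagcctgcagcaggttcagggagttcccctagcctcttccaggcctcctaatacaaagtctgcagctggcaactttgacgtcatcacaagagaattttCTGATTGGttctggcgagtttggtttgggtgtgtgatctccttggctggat
Sema7a (chr9:57939862-57940111, plus strand): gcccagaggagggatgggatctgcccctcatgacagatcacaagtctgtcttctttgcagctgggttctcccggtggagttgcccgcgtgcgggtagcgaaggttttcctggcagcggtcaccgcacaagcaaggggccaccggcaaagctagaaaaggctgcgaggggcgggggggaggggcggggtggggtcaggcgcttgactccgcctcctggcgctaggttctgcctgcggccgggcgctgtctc
Plxna3 (chrX:74328816-74329065, plus strand): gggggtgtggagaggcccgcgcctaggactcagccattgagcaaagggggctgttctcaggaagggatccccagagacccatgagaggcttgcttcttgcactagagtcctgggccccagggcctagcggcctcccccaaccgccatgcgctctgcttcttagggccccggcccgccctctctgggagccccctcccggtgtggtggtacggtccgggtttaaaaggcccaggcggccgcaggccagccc

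Levels are deposited intensities in arbitrary units, and each array has 21% to 26.4% of them below 0. Negative values gave a noise limit: 95% of them are smaller in size than 1701 in the table of 6 arrays and 2203 in the table of 3. Levels of different probe sets, and levels on the 2 array designs, were not compared with each other. The cells carried dendritic cell markers: of 15 measured, 14 lay above the limit on all 6 arrays, among them Itgax, Irf8, Ccr7 and Cd86, and the other, Zbtb46, was below it on some. Of 6 T cell and 5 endothelial markers none was above it on all 6 arrays, of 8 macrophage markers 2 were (Cd14 and Csf1r), and of 8 neutrophil, 5 B cell and 6 fibroblast markers 1 each (Lcn2, Pax5 and Col1a2). At or below it on all 6 arrays were 6 T cell, 5 endothelial, 6 macrophage, 5 neutrophil, 2 B cell and 5 fibroblast markers. The remaining neutrophil and B cell markers were above it on some arrays. The Ciita probe set lay below the limits on all 9 arrays, at 623, 933 and 1045 in B6 and 1601, 1639 and 1822 in CIITA-/-. H2-Ab1 was at 16070, 9621 and 30749 in the arrays labelled IAb-/-, against 17261, 21348 and 44048 in B6 and 615, 112 and 675 in CIITA-/-. Loss of the H2-Ab1 transcript is therefore not seen in the arrays labelled IAb-/- (log2 difference from B6 -0.63, SE 0.81, limma adjusted p = 1). The position of the Ciita and H2-Ab1 probe sets relative to a deleted part was not analysed here. Ciita therefore does not check the label CIITA-/-, nor H2-Ab1 the label IAb-/-. H2-Ab1 was below the limits on all 3 arrays labelled CIITA-/-. H2-Aa, which CIITA activates, was below 0 on all 3 arrays labelled CIITA-/- and between 33825 and 53578 on the B6 arrays.

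Of the 8 measured members, 6 were expressed above the noise limit: Plxna3, Plxnd1, Nrp1, Sema4a, Sema4d and Sema7a each had a probe set above it on all 6 arrays of experiments 2 and 3. Over the whole array 29.7% of probe sets did so, against 6 of the 11 member probe sets. Plxna1 and Plxna2 were above it on no array of that table. Counting a probe set as expressed when it exceeds the limit on every array of at least 1 group gives 35.1% of all probe sets and 7 of the 11, the added one being another probe set of Sema7a. In experiment 1, 5 members (Plxna3, Plxnd1, Nrp1, Sema4a and Sema7a) were above the limit on all 3 arrays, where 26.5% of all probe sets were.

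None of the 8 measured members differed between groups past the threshold, a Benjamini-Hochberg adjusted p under 0.05 over all 9312 probe sets tested with limma on the 6 arrays. In CIITA-/- against B6, 0 of 11 member probe sets passed, where 0.0966% of all tested probe sets did, and 0 of 11 had an unadjusted p under 0.05 (5.86% of all). In IAb-/- against B6, 0 passed (0.0107% of all) and 0 had an unadjusted p under 0.05 (4.31% of all). In CIITA-/- against IAb-/-, 0 passed (0.0215% of all) and 1, Plxna3, had an unadjusted p under 0.05 (4.54% of all). The median log2 difference over the 11 member probe sets was 0.05, 0.00 and -0.02 in these comparisons, against 0.01, 0.01 and 0.00 over all probe sets tested. All log2 differences are between floored values, where any value under 123.5 is set to it. A fit over all 9 arrays with the experiment as a block also gave 0 calls among the 9 member probe sets both designs hold. Over all 8145 probe sets it gave 0.0491% in CIITA-/- against B6, 0% in IAb-/- against B6 and 0.0368% in CIITA-/- against IAb-/-. In that fit 1 member, Sema7a, had an unadjusted p under 0.05 in CIITA-/- against B6 (4.55% of all) and against IAb-/- (4.15% of all), and 0 members did in IAb-/- against B6 (4.73% of all). The comparisons share their control arrays and are not independent.

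**Figure D1:**
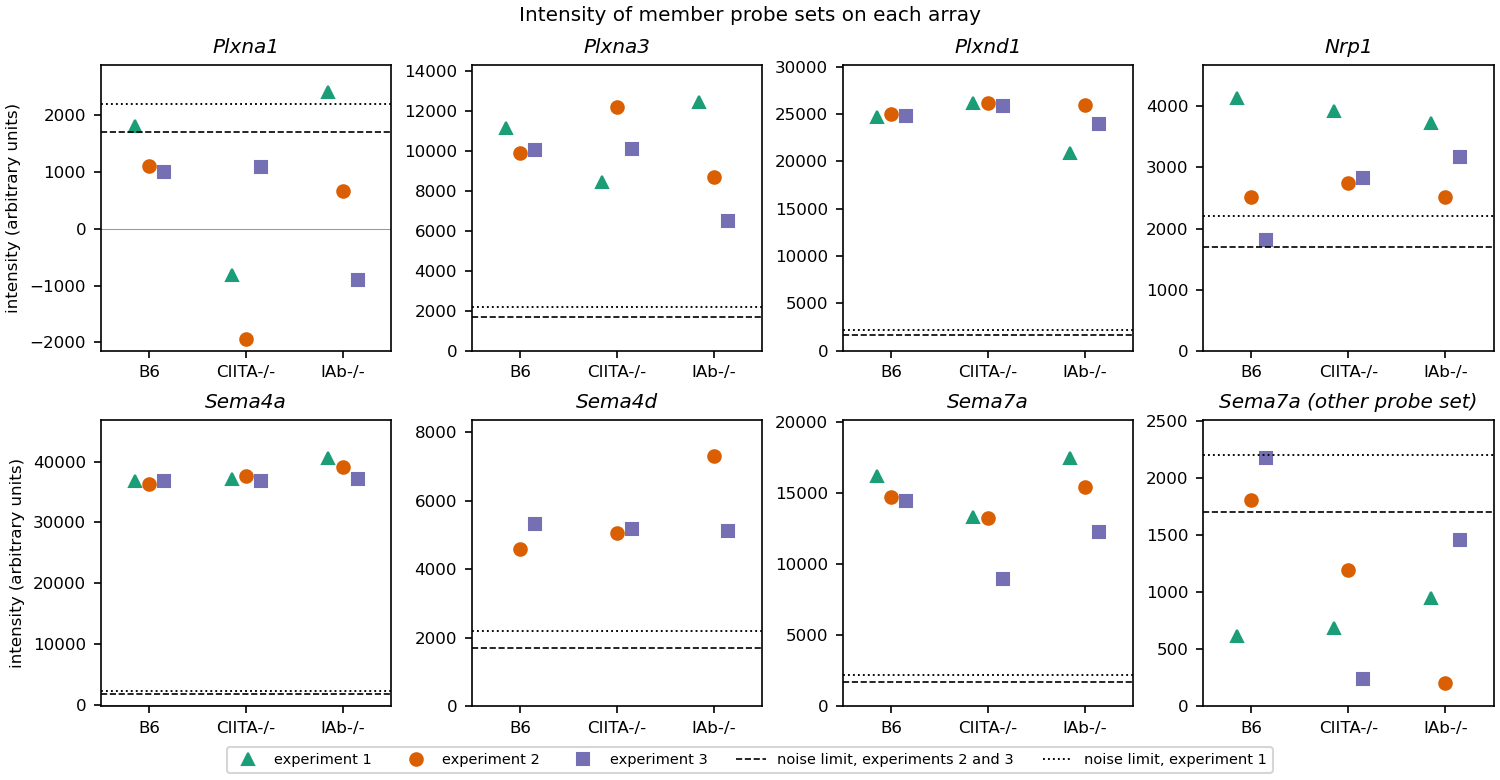
Intensity in arbitrary units (linear axis) of 8 probe sets of 7 members on each array, by group; each point is 1 array, and dashed and dotted lines mark the noise limits of 1701 and 2203. Plxna1 scatters around and below the limits, Sema4a stays between 36290 and 40613 on all 9 arrays, and Sema7a is lowest in the CIITA-/- array of experiment 3, at 8955; Sema4d has no experiment 1 point because that design holds another probe set.

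Plxna1 encodes plexin-A1, the receptor for which CIITA dependence is known. For experiments 2 and 3, its probe set read 1102 and 991 in B6, -1931 and 1086 in CIITA-/- and 667 and -900 in IAb-/-. In experiment 1 it read 1810 in B6, -805 in CIITA-/- and 2398 in IAb-/-. The 3 B6 values are all above 0, the CIITA-/- value is below 0 in experiments 1 and 2 but not in experiment 3, and the groups overlap. The IAb-/- array of experiment 1 is the 1 array of 9 above its limit. The log2 difference of CIITA-/- from B6 was -1.51 (SE 1.30, 95% interval -4.93 to 1.90, limma adjusted p = 0.93), and without CIITA-/- replicate 2 it was 0.06. Over all 9 arrays it was -2.44 (95% interval -5.93 to 1.06, limma adjusted p = 0.90). These intervals span a large fall, no change and a rise, so at this signal the arrays do not resolve whether Plxna1 differs. For IAb-/- against B6 the log2 difference was -1.86 (95% interval -5.28 to 1.55, limma adjusted p = 1).

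Plxna2 encodes another plexin of the A class. Its probe set read 302 and 383 in B6, 259 and 338 in CIITA-/- and 62 and 297 in IAb-/-, and 193, 170 and 420 in experiment 1. All 9 values lie below the limits, and the IAb-/- arrays are the lowest of experiments 2 and 3 and the highest of experiment 1. Its log2 differences from B6 were -0.20 in CIITA-/- and -0.83 in IAb-/- (limma adjusted p = 0.97 and 1). The value of -0.83 became -0.20 without IAb-/- replicate 2, -1.46 without IAb-/- replicate 3 and -0.18 over all 9 arrays, all of it within the noise.

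Plxna3 encodes plexin-A3, a receptor that pairs with neuropilins for class 3 semaphorins. It read 9920 and 10028 on the B6 arrays, 12227 and 10100 on the CIITA-/- arrays and 8726 and 6502 on the IAb-/- arrays. In experiments 2 and 3 both CIITA-/- values lie above both B6 values and both IAb-/- values lie below them. In experiment 1 the order turned, with 12457 in IAb-/-, 11154 in B6 and 8471 in CIITA-/-. CIITA-/- against IAb-/- had a log2 difference of 0.56 (SE 0.21, 95% interval 0.01 to 1.11, unadjusted p = 0.047, limma adjusted p = 1), but -0.56 in experiment 1 alone. Over all 9 arrays it was 0.19 (95% interval -0.45 to 0.83, limma adjusted p = 0.97). With 1 array left out it ranged from 0.35 to 0.77. Against B6 the log2 difference was 0.16 in CIITA-/-, or 0.018 without CIITA-/- replicate 2, and -0.41 in IAb-/-, or -0.19 without IAb-/- replicate 3.

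Plxnd1 encodes plexin-D1, the receptor of Sema3E. It read 25035 and 24761 in B6, 26177 and 25817 in CIITA-/- and 25997 and 23893 in IAb-/-, and 24687, 26124 and 20848 in experiment 1. The CIITA-/- value was the highest of its experiment each time, by log2 differences from B6 of 0.08, 0.06 and 0.06 in experiments 1, 2 and 3. Among 2876 probe sets above the limits on all 9 arrays, 17.6% were higher in CIITA-/- than in B6 in all 3 experiments, and 4.14% had CIITA-/- as the highest group in all 3. The fitted difference was 0.06 (SE 0.14, 95% interval -0.29 to 0.42, limma adjusted p = 0.97), which runs from 0.817 to 1.33 times the B6 level of Plxnd1.

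Nrp1 encodes neuropilin-1, which binds class 3 semaphorins and VEGF-A. Its brighter probe set read 2520 and 1807 in B6, 2749 and 2830 in CIITA-/- and 2511 and 3175 in IAb-/-, and 4129, 3929 and 3719 in experiment 1. The B6 array of experiment 3 is the lowest of 6 and close to the limit of 1701, and without it the log2 difference of CIITA-/- from B6 went from 0.39 (SE 0.23, limma adjusted p = 0.93) to 0.15, and that of IAb-/- from 0.40 (SE 0.23, limma adjusted p = 1) to 0.16. In experiment 1 both were below 0, at -0.07 and -0.15. The other Nrp1 probe set lay between 698 and 1120 on the 6 arrays and between 1144 and 1785 in experiment 1, below the limits throughout.

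Sema4a encodes the costimulatory semaphorin of dendritic cells. It read 36290 and 36810 in B6, 37649 and 36911 in CIITA-/- and 39118 and 37177 in IAb-/-, and 36801, 37182 and 40613 in experiment 1. The highest value of the 6 arrays is 1.08 times the lowest. In each experiment B6 was the lowest, CIITA-/- the next and IAb-/- the highest, though CIITA-/- exceeded B6 by only log2 0.0039 in experiment 3. The share of bright probe sets that keep this order was not counted. IAb-/- exceeded B6 by log2 0.14, 0.11 and 0.01 in experiments 1, 2 and 3, a direction that 13.8% of the 2876 bright probe sets also kept. The fitted log2 differences from B6 were 0.03 in CIITA-/- (SE 0.13, 95% interval -0.32 to 0.37, limma adjusted p = 0.99) and 0.06 in IAb-/- (SE 0.13, 95% interval -0.28 to 0.41, limma adjusted p = 1). For CIITA-/-, that interval runs from 0.803 to 1.30 times the B6 level of Sema4a. A further Sema4a probe set, held by the larger design alone, read between 330 and 735, below the limit.

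Sema4d encodes CD100, whose receptors include plexin-B1 and, on lymphocytes, CD72. Its probe set read 4577 and 5318 in B6, 5050 and 5172 in CIITA-/- and 7313 and 5132 in IAb-/-. The IAb-/- array of experiment 2 stands above the other 5, which lie between 4577 and 5318. Its difference from B6 was log2 0.68 in experiment 2 and -0.05 in experiment 3, and fitted 0.31 (SE 0.22, limma adjusted p = 1), or 0.06 without that array. CIITA-/- differed from B6 by 0.05 (SE 0.22, 95% interval -0.53 to 0.63, limma adjusted p = 0.99). The design of experiment 1 holds another Sema4d probe set, which read 1091 in B6, 1313 in CIITA-/- and 1085 in IAb-/-, all below the limit there, so experiment 1 gives no check of Sema4d.

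Sema7a encodes a membrane-anchored semaphorin that binds an integrin and plexin-C1. Its brighter probe set read 14716 and 14472 in B6, 13286 and 8955 in CIITA-/- and 15453 and 12275 in IAb-/-, and 16192, 13293 and 17510 in experiment 1. The CIITA-/- array was the lowest of its experiment each time. The difference of CIITA-/- from B6 was log2 -0.28, -0.15 and -0.69 in experiments 1, 2 and 3, and its difference from IAb-/- -0.40, -0.22 and -0.46. Of the 2876 bright probe sets, 13.2% were lower in CIITA-/- than in B6 in all 3 experiments and 14.1% lower than in IAb-/-. CIITA-/- was the lowest of the 3 groups in all 3 experiments in 4.52% of them.
The fitted difference from B6 was -0.42 (SE 0.25, 95% interval -1.08 to 0.24, limma adjusted p = 0.93), and -0.14 without CIITA-/- replicate 3. Over all 9 arrays with the experiment as a block, it was -0.37 (SE 0.14, 95% interval -0.73 to -0.02), which is 0.77 of the B6 level, with an unadjusted p = 0.041 and a limma adjusted p = 0.90. Against IAb-/- that fit gave -0.36 (SE 0.14, unadjusted p = 0.048, limma adjusted p = 0.97). IAb-/- and B6 differed by -0.02 in it (95% interval -0.37 to 0.33). The other Sema7a probe set was above the limit in B6 alone, at 1807 and 2176, against 1190 and 233 in CIITA-/- and 204 and 1458 in IAb-/-. The B6 geometric mean was 1.17 times the limit, which sets no bound on the difference. The 95% intervals run from 0.029 to 2.41 times the B6 level in CIITA-/- and from 0.030 to 2.49 times in IAb-/- (limma adjusted p = 0.93 and 1). In experiment 1 the values of this probe set, 611, 681 and 948, lie below the limit in all groups.

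**Figure D2:**
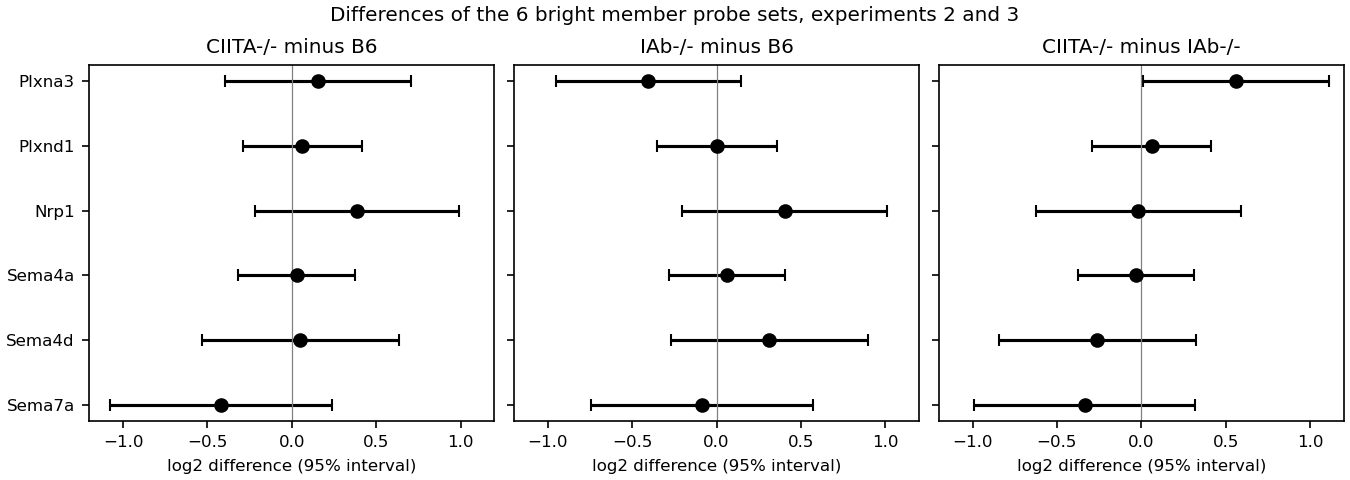
Log2 differences with 95% intervals (limma, 6 arrays of experiments 2 and 3, n = 2 per group) of the 6 member probe sets above the noise limit on all 6 arrays. The intervals of Sema4a and Plxnd1 are the narrowest and 17 of the 18 intervals include 0; the other is Plxna3 in CIITA-/- minus IAb-/-, at 0.56.

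**Figure D3:**
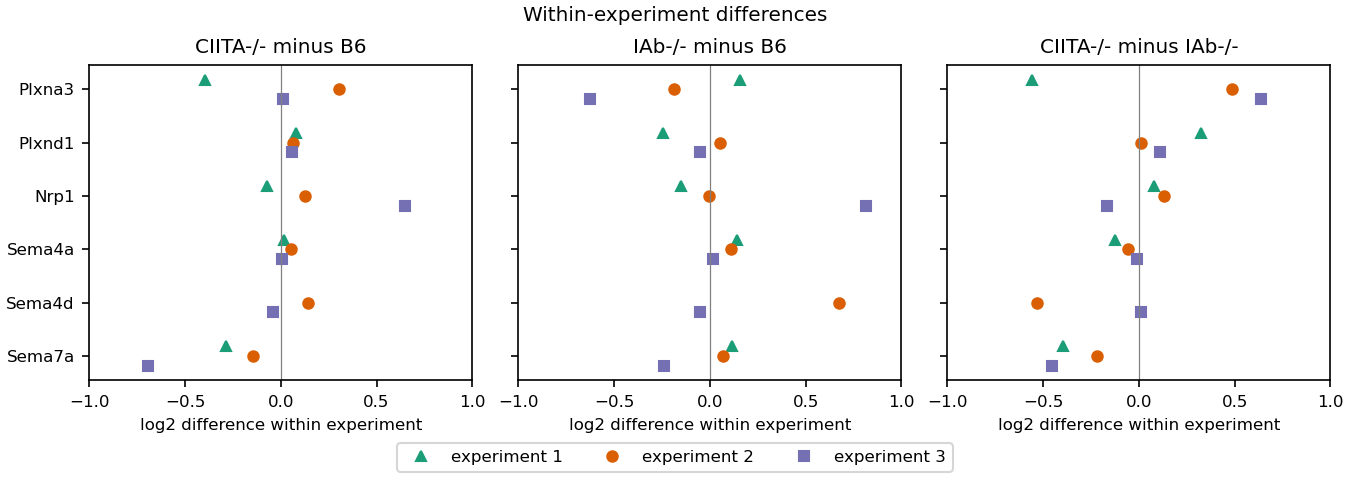
Log2 difference within each experiment for the same 6 probe sets, 1 point per experiment (Sema4d in experiments 2 and 3 alone). Sema7a lies left of 0 in all 3 experiments in both comparisons of CIITA-/-, and Plxna3 lies at -0.56 in experiment 1 but at 0.49 and 0.64 in experiments 2 and 3 in CIITA-/- minus IAb-/-.

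The bright members differed in spread over the 6 arrays of experiments 2 and 3. The highest over the lowest of the 6 intensities was 1.08 for Sema4a and 1.10 for Plxnd1, and 1.22% and 2.93% of the 3692 probe sets above the limit on all 6 arrays had a smaller ratio. It was 1.60 for Sema4d, 1.73 for Sema7a, 1.76 for Nrp1 and 1.88 for Plxna3, against a median of 1.31 over those probe sets. For these 4 genes, between 85.9% and 95.2% of the bright probe sets were less variable. Over the 3 arrays of experiment 1 the order was another: the ratio was 1.10 for Sema4a, 1.11 for Nrp1, 1.25 for Plxnd1, 1.32 for Sema7a and 1.47 for Plxna3, against a median of 1.19 over 3333 bright probe sets, of which 22% were below Sema4a and 64% below Plxnd1. The ratio includes differences between groups as well as between experiments. The bright probe sets were not matched to the members in intensity. On the 6 arrays Nrp1 lay between 1807 and 3174.5, near the limit, and Sema4a between 36290 and 39118. How the ratio depends on intensity was not tested.

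**Figure D4:**
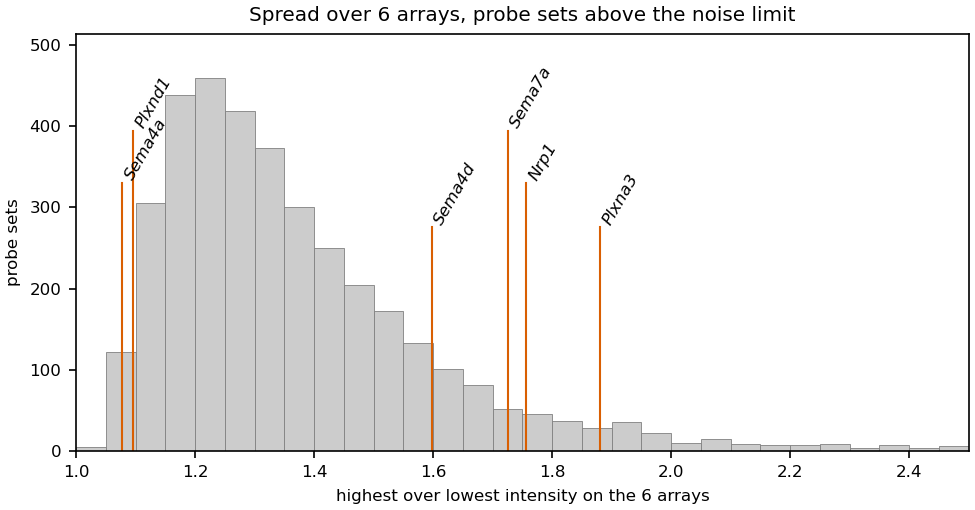
Histogram of the highest over the lowest intensity on the 6 arrays for the 3692 probe sets above the noise limit on all of them (35 lie beyond 2.5, off the axis), with the 6 bright members marked by vertical lines whose heights carry no value. Sema4a and Plxnd1 lie in the left tail and the other 4 right of the median of 1.31.

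The rest of the pathway was read from lists of 64 further genes, of which 45 have a probe set on the larger design, 34 were tested and 20 lay above the limit in a whole group. A whole group means every array of at least 1 group in experiments 2 and 3, where 35.1% of all probe sets were above. The counts of genes per list use this rule too, which is looser than all 6 arrays. Of the 46 tested probe sets of these genes, 0 passed in any comparison (limma, lowest adjusted p = 0.52). Over all tested probe sets 0.0966%, 0.0107% and 0.0215% passed in CIITA-/- against B6, IAb-/- against B6 and CIITA-/- against IAb-/-. In the same order, 3, 2 and 1 of the 46 had an unadjusted p under 0.05, as had 5.86%, 4.31% and 4.54% of all. Counts this small do not set the list apart from all probe sets. Those at an unadjusted p under 0.05 were Flt1 (higher than B6 in both mutants), Cd72 and a dim Timd2 probe set (lower in CIITA-/- than in B6) and Met (higher in IAb-/- than in either other group). None of these probe sets exceeded the noise limit on any of the 6 arrays, and they are named here outside the rule, after their values were seen. Of the other plexins and semaphorins, 4 of 14 measured were above the limit: Plxnb2, Sema4b, Sema4f and Sema6c, the last of which was below 0 on all arrays of experiment 1. The class 3 semaphorins Sema3a, Sema3b, Sema3c, Sema3e and Sema3f, picked out after their values were seen, were below the limits on every array. Plxnb2, the plexin-B2 receptor, read 2184 and 2078 in B6 and 2458 and 2716 in CIITA-/- (log2 difference 0.28, SE 0.16, limma adjusted p = 0.93), but was the other way in experiment 1, at -0.33. Sema4f had a log2 difference of 0.23 in CIITA-/- against B6 (-0.21 in experiment 1). Sema4b had one of -0.26 in IAb-/- against B6 on a probe set that experiment 1 lacks. That probe set read 1466 in the IAb-/- array of experiment 2, below the limit. Sema4b has 3 probe sets on the larger design, and 2 of them were above the limit on all 6 arrays. The design of experiment 1 holds 2 Sema4b probe sets, each above its limit on some array. The differences of the other Sema4b probe sets are not given here.

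Among partners at the cell surface, 3 of 10 measured genes were above the limit. Itgb1, the beta chain of the integrin that Sema7A binds, has 2 probe sets, both above the limit on all 6 arrays. The 1 with the smallest p read 39664 and 36785 in B6, 40714 and 43612 in CIITA-/- and 35088 and 29724 in IAb-/-. Its log2 difference between CIITA-/- and IAb-/- was 0.38 (SE 0.16, limma adjusted p = 1), and 0.08 in experiment 1. The differences of the other Itgb1 probe set are not given here. Tyrobp, which encodes DAP12, the adaptor of the plexin-A1 complex, read 16199 and 13703 in B6, 17016 and 13356 in CIITA-/- and 17682 and 12903 in IAb-/-. In each group it was higher in experiment 2 than in experiment 3, and the groups overlap. Timd2, for a receptor of Sema4A, had on its brightest probe set a log2 difference of -0.18 in IAb-/- against B6 (0.23 in experiment 1). In experiment 1 that probe set read 2046 in B6, below the limit of 2203 there, and 2400.5 in IAb-/-. Among other neuropilin ligands 3 of 5 were above the limit. Vegfa had a log2 difference of -0.44 and Pgf one of -0.68 in CIITA-/- against IAb-/-, and -0.29 and -0.15 in experiment 1. In CIITA-/-, Vegfa read 1572 in experiment 2 and Pgf 1004.5 in experiment 3, both below the limit. The fitted difference of each gene therefore includes a value within the noise. In experiment 3 Vegfa was the other way, at 2157 in CIITA-/- and 1956 in IAb-/-, and both Pgf values of experiment 1 lie below its limit. Tgfb1 had one of 0.41 in IAb-/- against B6 and -0.23 in experiment 1.

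Below the receptors, 10 of 16 measured signalling genes were above the limit. Rhoa, a GTPase that drives actin contraction, read 22605 and 21774 in CIITA-/-, 19155 and 17602 in B6 and 18181 and 17173 in IAb-/- on one of its probe sets, and 21845, 18080 and 16968 in experiment 1. There CIITA-/- was the highest of each experiment, with a log2 difference from IAb-/- of 0.33 (SE 0.14, 95% interval -0.04 to 0.69, limma adjusted p = 1), a pattern that 4.14% of the 2876 bright probe sets share. Its other probe sets had log2 differences between CIITA-/- and IAb-/- of 0.098 and 0.0022, so the difference of 0.33 rests on 1 of 3 Rhoa probe sets. Cfl1, the actin-severing protein cofilin, had one of 0.20 in CIITA-/- against B6 (-0.02 in experiment 1), and Tiam1, an activator of Rac, one of 0.32 in IAb-/- against B6 (-0.56 in experiment 1).

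For each bright member, the 3 probe sets with the most alike profile over the 6 arrays were found by Pearson correlation of log2 intensities among 3303 bright probe sets with 1 symbol. With 6 arrays and so many candidates, values this high occur for every member, so the names are a description of these arrays. Sema7a was closest to H2-DMa (r = 0.99), Xbp1 (0.99) and Rnf19b (0.97). Plxna3 was closest to Uqcr11 (0.99), Rad52 (0.98) and Ppp6c (0.97), and Nrp1 to C3ar1 (0.98), Vmp1 (0.98) and Arf5 (0.97). Plxnd1 was closest to Mea1 (0.99), Ltbr (0.98) and Atp5l (0.98). Sema4a was closest to Lrpap1 (0.99), Il4ra (0.98) and Afg3l1 (0.98), and Sema4d to Ncl, Shisa5 and Map3k1 (all 0.96). Experiment 1 was not part of these profiles. Its log2 difference of CIITA-/- from B6 was -0.28 for Sema7a, against -0.75, 0.15 and 0.0087 for its 3 in the order named. It was -0.40 for Plxna3 against 0.68, 0.08 and -0.30, and -0.07 for Nrp1 against -0.20, -0.15 and 0.17. For Plxnd1 it was 0.08 against 0.73, -0.15 and 0.15, and for Sema4a 0.015 against -0.34, -0.20 and 0.49.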

How the data were processed

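Transcripts of day 10 dendritic cells were measured on 9 arrays. The deposited values are probe set intensity values on a linear scale; the algorithm behind them was not given in the sources used here. That scale was kept. In the table of 6 arrays, values under its 30th percentile (123.5) were set to it and log2 was taken; the floor is 93.2 in the other table. Of 12422 probe sets that are not controls, the 9312 above the floor on at least 2 arrays were tested. One model over the 3 groups was fitted with lmFit and eBayes of limma 3.58.1 (R 4.3.3), with 3 residual degrees of freedom, and checked on simulated data. The number of arrays limits the precision. Gene symbols were read from the annotation of the platform; probe sets with several symbols were not used. Promoter sequences are RefSeq's.

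Experiment numbers in the titles pair the arrays: same-numbered arrays of the 6 deviated together (r = 0.22 to 0.31 across 3692 bright probe sets). The main fit of the 6 arrays did not use this pairing, so its SEs, intervals and p-values leave it out. A fit of the 6 arrays with the experiment as a block was run as an alternative, and its member intervals are not given here. The fit with all 9 arrays used the experiment as a block, the floor of each table and the 8145 shared probe sets above the floor on at least 2 arrays. Members and gene lists were chosen with earlier results of these data known. The genes named are all members, and Ciita, H2-Ab1 and H2-Aa, which were read against the labels. Up to 3 per pathway list are named, by the smallest p among those above the noise limit in a group. The 3 closest profiles per bright member are named too. Alternatives were another floor, an inverse hyperbolic sine scale, quantile normalization, other filters, the experiment as a block and leaving out each array.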

Additional observations from a re-analysis of the deposited data

How the results depend on the processing

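No member and no other pathway gene passed under any of the 13 alternatives in any comparison (limma; the lowest adjusted p of a member was 0.43, Plxna2 in IAb-/- against B6 without IAb-/- replicate 3). The count of expressed members was 6, or 5 with the noise limit at the 99th percentile.

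Over all probe sets, the count of calls in CIITA-/- against B6 was 9, against 1 with the floor at the noise limit, 5 on the inverse hyperbolic sine scale, 4 with the stricter filter, 0 with the experiment as a replicate block on 6 arrays and 4 with it on 9, and 0 to 1 with 1 array left out. In IAb-/- against B6 it was 1, against 3 after quantile normalization, 0 with either block, the higher floor, the inverse hyperbolic sine scale or the stricter filter, and 0 with 1 array left out. In CIITA-/- against IAb-/- it was 2, against 1 with the higher floor, 4 with the stricter filter, 0 with the block on 6 arrays and 0 to 1 with 1 array left out. At an unadjusted p under 0.05, the block on 6 arrays gave 606, 491 and 492 in these comparisons. In IAb-/- against B6 the block on 9 arrays gave 385, the higher floor 231, the inverse hyperbolic sine scale 365 and the stricter filter 194. With 1 array left out it was 316 to 813, 274 to 810 and 362 to 706. The stricter filter and higher floor leave 4618 and 4950 probe sets to test.

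Of the members' log2 differences, none past a threshold, 6 of 201 turned sign under the alternatives other than leaving out an array. A value of 0 at 2 decimals was counted as having no sign, and so as not turned. The other 195 thus include Plxnd1 in IAb-/- against B6, given below. They also include the dim Sema7a probe set in CIITA-/- against IAb-/-, which went from -0.048 to 0 with the higher floor. The other filters and the block on 6 arrays leave a log2 difference as it was. The count of 195 therefore includes values whose sign could not turn. With the block over all 9 arrays the sign turned for Plxna3 in CIITA-/- against B6 (-0.028), the dim Nrp1 probe set in IAb-/- against B6 (-0.18), and, in CIITA-/- against IAb-/-, the bright Nrp1 probe set (0.015), Plxna2 (-0.015) and Plxna1 (-1.33). Plxna1 also turned there on the inverse hyperbolic sine scale (-0.18). Plxnd1 in IAb-/- against B6, which is 0.0015 and counted as having no sign, was -0.08 with this block and -0.059 to 0.062 with 1 array left out. The block changed no call of a member.

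With 1 array left out, which leaves a group of 1 that is assumed to vary like the others, the sign turned within these ranges. In CIITA-/- against B6 they were -3.08 to 0.055 for Plxna1, -0.057 to 0.16 for Sema4d and -0.32 to 0.83 for the dim Sema4a probe set. In IAb-/- against B6 they were -0.32 to 0.36 for the dim Nrp1 probe set and -0.25 to 0.083 for the bright Sema7a probe set. In CIITA-/- against IAb-/- they were -0.85 to 0.31 for the dim Sema4a probe set, -0.22 to 0.47 and -0.19 to 0.15 for the dim and bright Nrp1 probe sets, -1.22 to 1.92 for Plxna1 and -1.47 to 1.37 for the dim Sema7a probe set. The cause was not tested.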
